A study of Homo sapiens with 8 samples.

Results

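The genes described here are 34 chaperones, folding enzymes, stress sensors and degradation factors of the endoplasmic reticulum (ER). They were chosen by name, as a list of ER chaperone and unfolded protein response genes, but with earlier results of these data known. All 34 were found among the 60666 Ensembl gene IDs of the count table. Their RNA was read by bulk sequencing of MRC5, fibroblasts from human lung. In bulk RNA, fewer cells of a type and less RNA per cell cannot be told apart.

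The study compared 4 groups, with 2 libraries in each. MRC5 cells transduced with a control hairpin (shMock) and MRC5 cells transduced with a hairpin against MTHFD2 (shMTHFD2), a mitochondrial enzyme of the folate cycle, were each sampled without TGF-β1 (control) and with it (Tgfb1). According to the labels, the dose was 4 ng of TGF-β1 (no volume is stated) and cells were incubated for 24 h. All groups therefore carry a hairpin, and no untransduced cells, other hairpin or rescue are among the libraries, so a difference between the lines cannot be told apart from one that comes with the loss of MTHFD2. The dose text stands on the control samples too, some genotype fields of the shMTHFD2 samples name other genes, and the extraction text names another cell line, so groups were taken from the sample titles. Whether replicates were separate cultures is not said, and the p-values then reflect only how these libraries vary, part of which may be technical.

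Proteins that enter the secretory pathway fold in the ER with the help of chaperones, lectins and disulfide isomerases, and those that fail are sent back to the cytosol for degradation. When unfolded proteins build up, the membrane sensors IRE1 (ERN1), PERK (EIF2AK3) and ATF6 start the unfolded protein response, in which the transcription factors XBP1 and ATF6 raise the genes of folding and degradation and PERK slows translation. TGF-β1 turns fibroblasts into myofibroblasts, which secrete large amounts of collagen and other matrix proteins that must be folded in the ER.

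XBP1 and ATF6 are known to act through short DNA elements near the start of their target genes. The letters are shown for some of the listed genes that carry such an element, and not for every gene with a large or steady difference. ERN1, EIF2AK3 and DNAJC10 are not among the genes shown. Windows from 250 bases before to 50 bases after the annotated start, from RefSeq on GRCh38.p14, were found for 31 of the 34 genes. They were searched on both strands for the ER stress response element ERSE (CCAAT and CCACG with any 9 bases between them), the shorter ERSE-II (ATTGG and CCACG with any 1 base between them) and the unfolded protein response element UPRE (TGACGTGG). ERSE was found in 8 of the genes (HSPA5, HSP90B1, XBP1, PDIA6, CRELD2, CALR, CANX and ERO1B) and in 0.0916% of all 27305 genes with a window. ERSE-II was found in HERPUD1, SDF2L1 and HYOU1 and in 0.0696% of all genes with a window. UPRE was found in DNAJC10, HYOU1 and TXNDC5 and in 0.927% of all genes with a window. At least 1 of these elements stood in 13 of the 31 listed genes with a window, against 1.08% of all genes with a window. The genes were listed by name as genes of the response to which these elements belong. A higher share was therefore built into the choice of genes and is no result of these data. A match is a description of letters, and where none was found, only these letters were not in these windows. In the sequences below, read 5′ to 3′ on the strand of the gene, capitals mark the letters that the motifs fix.

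HSPA5 is shown with the 250 bases before its start because it is the classic target of the response. The stretch lies outside the annotated gene at chr9:125241344-125241593 on the minus strand, with its ERSE from 66 to 48 bases before the start.
HSPA5: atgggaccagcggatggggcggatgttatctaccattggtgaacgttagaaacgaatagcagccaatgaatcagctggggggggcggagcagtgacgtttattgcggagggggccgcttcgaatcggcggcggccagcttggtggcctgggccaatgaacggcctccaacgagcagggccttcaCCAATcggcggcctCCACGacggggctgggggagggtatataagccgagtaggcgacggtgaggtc
The next sequences are the ERSE of XBP1 (chr22:28800603-28800621, minus strand), both ERSE of HSP90B1 (chr12:103930216-103930234 and chr12:103930321-103930339, plus strand, in an annotated exon of HSP90B1) and the ERSE of CALR with its flanks (chr19:12938368-12938418, plus strand).
XBP1: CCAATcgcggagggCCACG
HSP90B1, site farther from the start: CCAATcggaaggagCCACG
HSP90B1, nearer site, on the opposite strand: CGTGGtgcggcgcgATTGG
CALR, on the opposite strand: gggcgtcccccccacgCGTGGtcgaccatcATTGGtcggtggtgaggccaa
The remaining ones show the shorter elements in HERPUD1 (ERSE-II, chr16:56932025-56932035, plus strand), HYOU1 (chr11:119057364-119057406 and chr11:119057258-119057300, minus strand) and TXNDC5 (UPRE, chr6:7910146-7910185, minus strand, in an annotated intron of TXNDC5). In the farther HYOU1 stretch the UPRE and the ERSE-II overlap, and both ERSE-II lie on the opposite strand.
HERPUD1: ATTGGgCCACG
HYOU1, farther stretch: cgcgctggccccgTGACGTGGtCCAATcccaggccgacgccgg
HYOU1, nearer stretch: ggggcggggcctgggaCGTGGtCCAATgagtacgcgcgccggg
TXNDC5: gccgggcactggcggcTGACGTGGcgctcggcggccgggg

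The hairpin was checked on its target. MTHFD2 stood at 58.8 and 57.1 CPM (counts divided by the scaled size of their library) in shMock control, 256 and 258 in shMock Tgfb1, 14.9 and 18.7 in shMTHFD2 control and 93.8 and 91.9 in shMTHFD2 Tgfb1. It was thus lower in shMTHFD2 in each state, and its exons overlap genes on the opposite strand. Its level in shMTHFD2 with TGF-β1 lay above that in shMock without it. Library totals were 18162738 to 22221927 counts, so 3 counts, taken as the floor, stood at 0.135 to 0.172 CPM, and floors cover counting error only. All 9 fibroblast markers were tested, with a summed level of 30579 to 36635 CPM in the control libraries and 49802 to 54250 CPM in the Tgfb1 libraries. Of markers of other cells, SFTPC, NKX2-1 and KRT19 (epithelium), PECAM1 and CDH5 (endothelium), CD3E (leukocytes) and DES (smooth muscle) were at 0 in every library. The epithelial list summed to 24.9 to 35.9 CPM, and the endothelial list to 96.8 to 110 CPM in control and 40.8 to 48.9 CPM in Tgfb1 libraries (mostly TEK). The leukocyte list, mostly CD68, summed to 106 and 101 CPM in shMock control, 58.6 and 53.5 in shMock Tgfb1, 76.4 and 75.0 in shMTHFD2 control and 47.2 and 51.1 in shMTHFD2 Tgfb1. CD68, the 1 marker of that list tested, fell with TGF-β1 in both lines and was lower in shMTHFD2 without TGF-β1 (log2 -0.45, edgeR adjusted p = 0.0025), and its part in the results was not tested. The 5 smooth muscle and pericyte markers summed to 191 and 190 CPM in shMock control, 291 and 295 in shMock Tgfb1, 117 and 107 in shMTHFD2 control and 192 and 176 in shMTHFD2 Tgfb1. They moved with the genes described below, through CNN1 and MCAM (2 of 3 tested rose with TGF-β1 in each line and 2 of 3 fell in shMTHFD2 in each state), and their part in the results was not tested.

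Per kilobase of the principal transcript, the highest levels among the 34 genes were those of P4HB (308 CPM per kb, mean of the 4 groups), CALR (289.6), HSP90B1 (253), CANX (152) and HSPA5 (127). The sensors were low, with EIF2AK3 at 5.21 and ERN1 at 1.55 CPM per kb, and DERL3 was lowest at 0.523. Together the 34 genes summed to 5411 and 5447 CPM in shMock control, 7634 and 6936 in shMock Tgfb1, 4496 and 4456 in shMTHFD2 control and 5967 and 6144 in shMTHFD2 Tgfb1. The sum was higher with TGF-β1 in both lines and lower in shMTHFD2 in both states, with no overlap between the groups compared. With 2 libraries a group, groups can stand apart without a called difference, as PDIA6 did with TGF-β1 in shMock (edgeR adjusted p = 0.399).

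TGF-β1 raised most of these genes in both lines. In shMock, 21 of the 33 tested genes rose and 0 fell (edgeR's quasi-likelihood test, adjusted p under 0.05 over all 13493 genes tested), while 17.3% of all tested genes rose and 18.1% fell. In shMTHFD2, 19 rose and 0 fell, against 12.8% and 11.0% of all tested genes. The median log2 fold change of the 33 genes was 0.42 in shMock (all genes -0.02) and 0.39 in shMTHFD2 (all genes -0.01). XBP1 had the largest rise in each line, and the rises called in shMock ran down to 0.31 on the log2 scale, that of PDIA4. Scaling by library totals alone moved the median of all genes to -0.16 in shMock and -0.12 in shMTHFD2, and split the calls into 19 rises and 2 falls (PDIA6 and SIL1) in shMock and 16 rises and 2 falls (ERO1A and DERL2) in shMTHFD2. DERL3 was the only one of the 34 not tested, at 5 and 2 counts in shMock control, 13 and 17 in shMock Tgfb1, 5 and 2 in shMTHFD2 control and 13 and 12 in shMTHFD2 Tgfb1. DERL3 exons overlap SMARCB1 on the opposite strand, and strand use is not known.

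**Figure D1:**
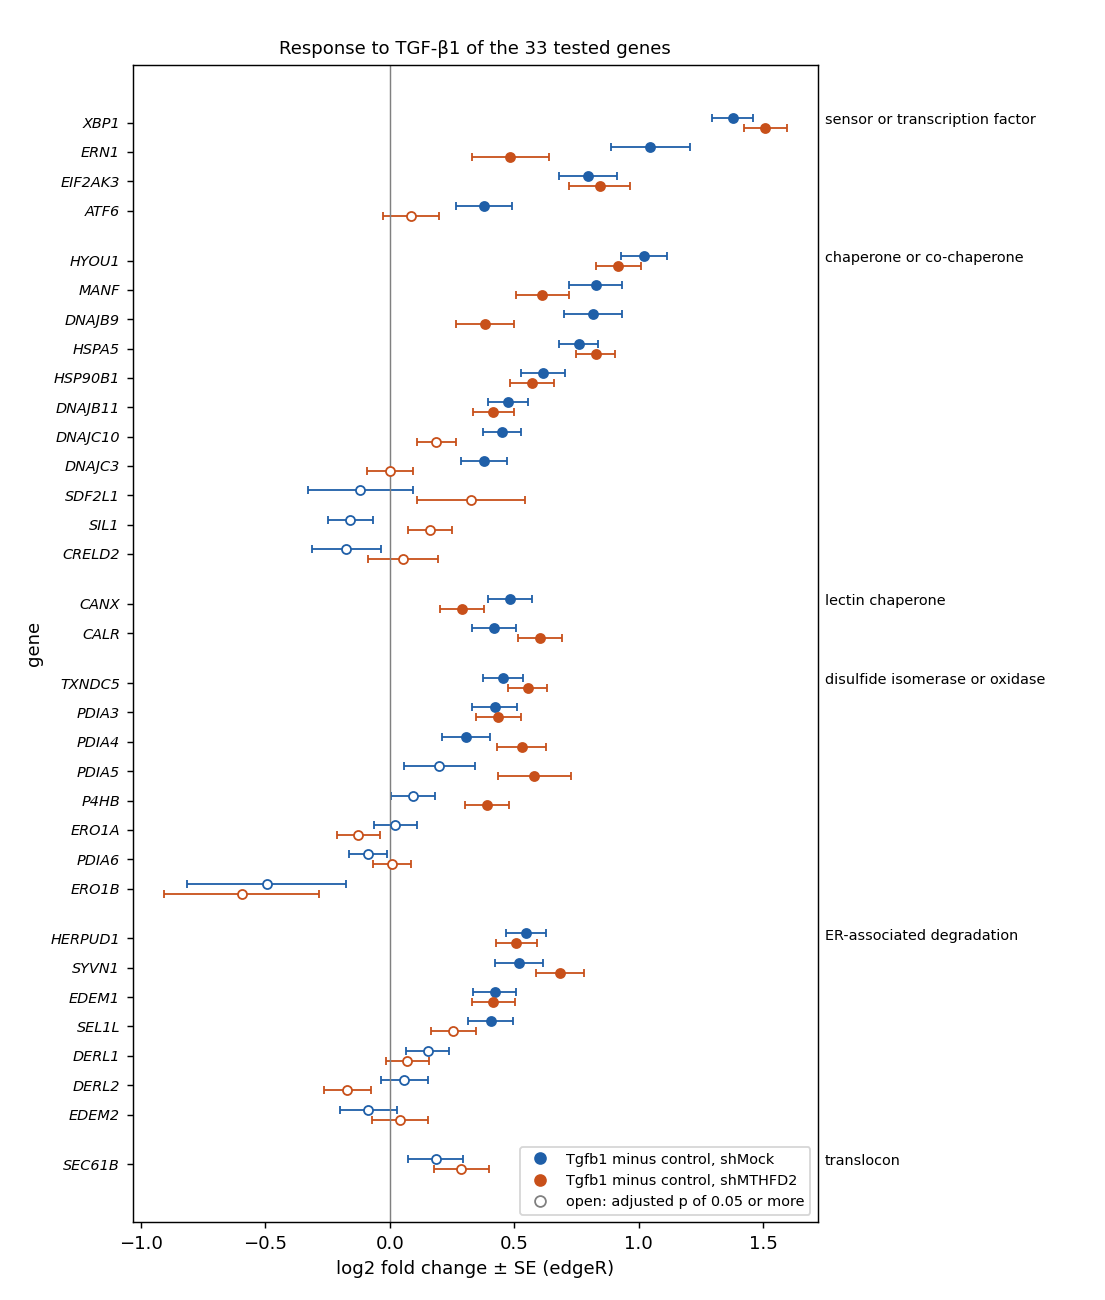
Log2 fold change with TGF-β1 (horizontal axis, ± SE from edgeR) of the 33 tested genes (vertical axis), grouped by role, in shMock (blue) and shMTHFD2 (orange); filled points have an adjusted p under 0.05. All filled points lie to the right of 0, XBP1 lies farthest out at 1.38 and 1.51, and the disulfide oxidases ERO1A and ERO1B have open points in both lines.

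Where a difference between the lines was called at the main settings, these genes were lower in shMTHFD2. Log2 values above 0, none of them called, stood in 8 of the 33 without TGF-β1 and in 6 with it. Without TGF-β1, 10 of 33 fell and 0 rose, against 8.19% falling and 3.25% rising among all tested genes, and the median log2 difference was -0.22 (all genes -0.01). With TGF-β1, 12 of 33 fell and 0 rose, against 8.23% and 4.83% of all tested genes, and the median was -0.19 (all genes 0.01). The called differences were between -0.35 (P4HB) and -0.65 (XBP1) without TGF-β1, and between -0.27 (DNAJB11) and -0.58 (EIF2AK3) with it. These counts rest on few libraries: without TGF-β1 the 10 became 4 when shMock control replicate 2 was left out and 3 without shMTHFD2 control replicate 2, and with TGF-β1 the 12 became 4 without shMock Tgfb1 replicate 1 and 5 without shMTHFD2 Tgfb1 replicate 1. HSPA5, HERPUD1 and XBP1 kept their call in both states, and DNAJC10 kept it with TGF-β1, under each alternative run. Scaling by library totals called DNAJC3 as higher in shMTHFD2 without TGF-β1 (1 rise and 9 falls) and left 8 falls with TGF-β1.

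**Figure D2:**
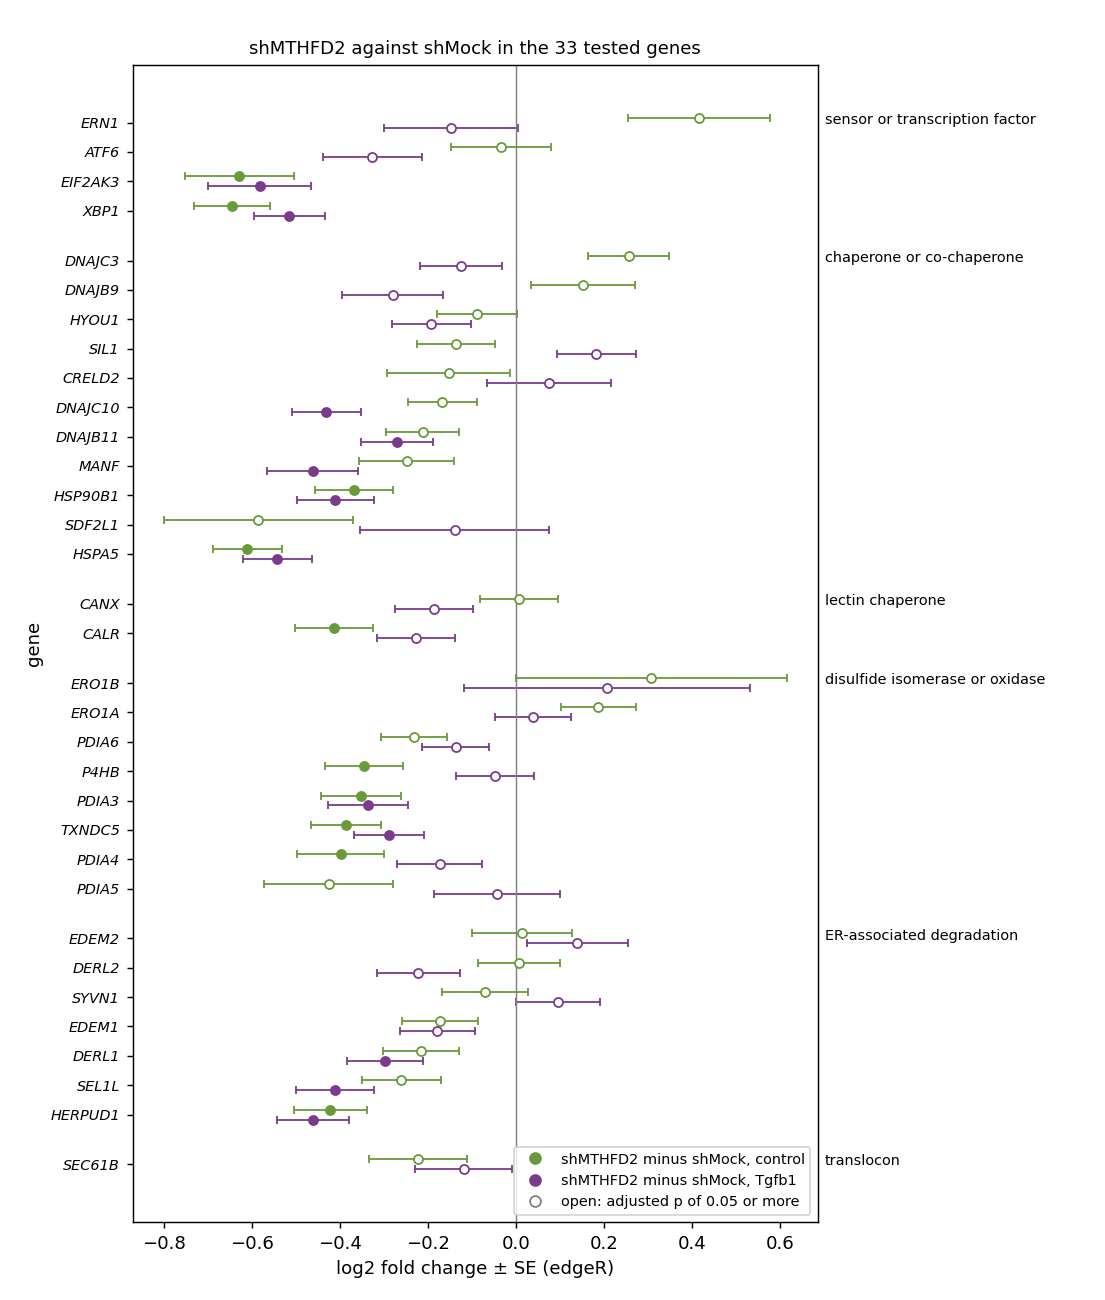
Log2 difference of shMTHFD2 minus shMock (horizontal axis, ± SE from edgeR) for the 33 tested genes (vertical axis), grouped by role, without TGF-β1 (green) and with it (purple); filled points have an adjusted p under 0.05. All filled points lie to the left of 0, 10 without and 12 with TGF-β1. HYOU1, SYVN1, CANX, EDEM1, DNAJB9 and ERN1 have open points in both states although they rose with TGF-β1 in both lines. An open point does not show that the lines were alike.

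Among the sensors and transcription factors, all 4 rose with TGF-β1 in shMock and 3 rose in shMTHFD2, against 17.3% and 12.8% of all tested genes. XBP1 (ENSG00000100219, chromosome 22, 28794555 to 28800597, minus strand), the transcription factor made when IRE1 splices its RNA, stood at 62.1 and 63.8 CPM in shMock control, 165 and 162 in shMock Tgfb1, 38.9 and 41.6 in shMTHFD2 control and 108 and 120.4 in shMTHFD2 Tgfb1. The 4 groups did not overlap, and shMTHFD2 control was lowest. XBP1 rose 2.60-fold with TGF-β1 in shMock (log2 1.38 ± 0.08 SE, edgeR adjusted p = 5.08e-09) and 2.84-fold in shMTHFD2 (1.51 ± 0.09, 2.97e-09). It was 1.56-fold lower in shMTHFD2 without TGF-β1 (log2 -0.65 ± 0.09, edgeR adjusted p = 0.000203) and 1.43-fold lower with it (-0.51 ± 0.08, 0.000741). These are levels of the whole gene and do not separate spliced from unspliced RNA.

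EIF2AK3 (ENSG00000172071, chromosome 2, 88556741 to 88627576, minus strand), which encodes PERK, stood at 21.7 and 20.9 CPM in shMock control, 39.8 and 34.1 in shMock Tgfb1, 14.3 and 13.2 in shMTHFD2 control and 23.9 and 25.5 in shMTHFD2 Tgfb1. No 2 of the groups overlapped. It rose by a log2 0.80 ± 0.12 SE with TGF-β1 in shMock (edgeR adjusted p = 8.34e-05) and by 0.84 ± 0.12 in shMTHFD2 (9.41e-05). In shMTHFD2 it was lower by log2 -0.63 ± 0.12 without TGF-β1 (edgeR adjusted p = 0.0039) and by -0.58 ± 0.12 with it (0.00447), but these calls were lost without shMTHFD2 control replicate 2 (0.0526) and without shMock Tgfb1 replicate 1 (0.0664). Its exons overlap genes on the opposite strand.

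ERN1 (ENSG00000178607, chromosome 17, 64039142 to 64130819, minus strand), which encodes the kinase and nuclease IRE1, stood at 7.37 and 8.19 CPM in shMock control, 17.7 and 14.4 in shMock Tgfb1, 10.2 and 10.49 in shMTHFD2 control and 14.4 and 14.6 in shMTHFD2 Tgfb1. Its level in shMTHFD2 control lay above that in shMock control, while the Tgfb1 groups overlapped. ERN1 rose by log2 1.05 ± 0.16 SE in shMock (edgeR adjusted p = 0.000104) and by 0.48 ± 0.16 in shMTHFD2 (0.0339). The call in shMTHFD2 was lost when any of the 4 shMTHFD2 libraries was left out (edgeR adjusted p = 0.102 to 0.149), with scaling by library totals (0.0941) and in DESeq2 (0.0979). The difference between the lines did not pass without TGF-β1 (log2 0.41 ± 0.16, edgeR adjusted p = 0.116) or with it (-0.15 ± 0.15, 0.584).

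ATF6 (ENSG00000118217, chromosome 1, 161766294 to 161964070, plus strand), a sensor that is cut in the Golgi to free a transcription factor, stood at 59.0 and 51.0 CPM in shMock control, 73.5 and 69.4 in shMock Tgfb1, 50.5 and 57.0 in shMTHFD2 control and 50.4 and 63.4 in shMTHFD2 Tgfb1. Only shMock Tgfb1 stood above the other groups. The rise in shMock was log2 0.38 ± 0.11 SE (edgeR adjusted p = 0.0165), and the call was lost without shMock control replicate 2 (0.128), without shMock Tgfb1 replicate 1 (0.0860), with scaling by library totals (0.0932) and with GC and length offsets (0.0513). In shMTHFD2 the log2 value was 0.08 ± 0.11 (edgeR adjusted p = 0.654). With TGF-β1 ATF6 stood at log2 -0.33 ± 0.11 in shMTHFD2 against shMock (edgeR adjusted p = 0.0705), which passed without shMTHFD2 Tgfb1 replicate 2 (0.0252) and with no low-count filter (0.0188).

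**Figure D3:**
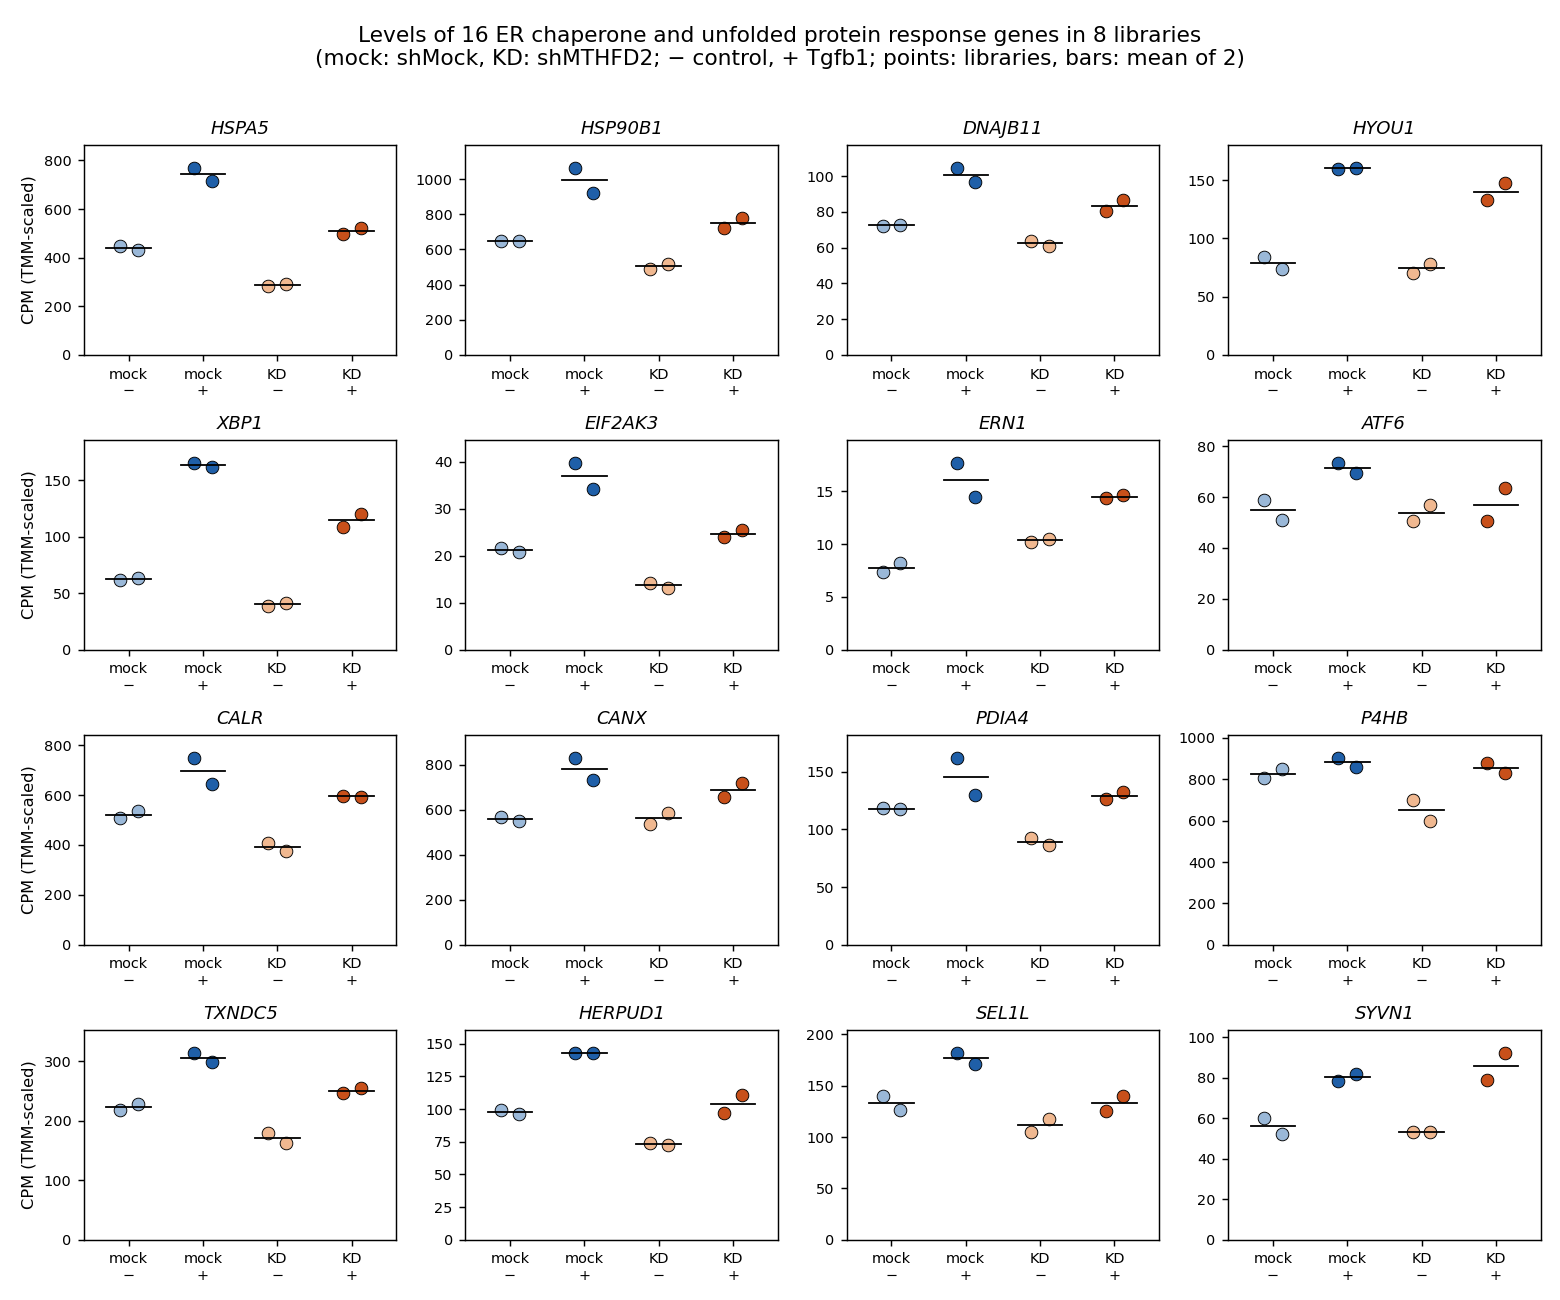
Levels in CPM (vertical axis, from 0, scale set for each gene) of 16 of the genes in the 8 libraries; mock is shMock, KD is shMTHFD2, − is control and + is Tgfb1 (horizontal axis), points are libraries and bars the mean of 2. HSPA5, XBP1 and EIF2AK3 keep the same order in each panel, with shMTHFD2 control lowest and shMock Tgfb1 highest, whereas the line differences of HYOU1 and SYVN1 were not called.

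Among the 11 tested chaperones and co-chaperones, 8 rose with TGF-β1 in shMock and 6 in shMTHFD2, against 17.3% and 12.8% of all tested genes. Between the lines, 2 fell in shMTHFD2 without TGF-β1 and 5 with it, against 8.19% and 8.23% of all tested genes. HSPA5 (ENSG00000044574, chromosome 9, 125234853 to 125241330, minus strand) encodes BiP, the main Hsp70 of the ER, which also holds the sensors inactive. It stood at 446 and 431 CPM in shMock control, 770.0 and 714 in shMock Tgfb1, 284 and 291 in shMTHFD2 control and 497 and 523 in shMTHFD2 Tgfb1. Each group was separate from the others, and shMTHFD2 with TGF-β1 stood only a little above shMock without it. HSPA5 rose 1.69-fold in shMock (log2 0.76 ± 0.08 SE, edgeR adjusted p = 2.13e-06) and 1.77-fold in shMTHFD2 (0.83 ± 0.08, 1.13e-06). It was 1.53-fold lower in shMTHFD2 without TGF-β1 (log2 -0.61 ± 0.08, edgeR adjusted p = 0.000153) and 1.46-fold lower with it (-0.54 ± 0.08, 0.000382).

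HSP90B1 (ENSG00000166598, chromosome 12, 103930107 to 103953645, plus strand) encodes GRP94, the Hsp90 of the ER. Its levels were 650.4 and 648 CPM in shMock control, 1064 and 923 in shMock Tgfb1, 488 and 518 in shMTHFD2 control and 719 and 776 in shMTHFD2 Tgfb1, with no overlap. TGF-β1 raised it by log2 0.61 ± 0.09 SE in shMock (edgeR adjusted p = 5.9e-05) and by 0.57 ± 0.09 in shMTHFD2 (0.000149). It was lower in shMTHFD2 by -0.37 ± 0.09 without TGF-β1 (edgeR adjusted p = 0.0135) and -0.41 ± 0.09 with it (0.00653). The former call was lost when any of the 4 control libraries was left out (edgeR adjusted p = 0.0602 to 0.11), and the latter without shMock Tgfb1 replicate 1 (0.0663) or shMTHFD2 Tgfb1 replicate 1 (0.0874). HSP90B1 exons overlap genes on both strands.

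HYOU1 (ENSG00000149428, chromosome 11, 119044189 to 119057202, minus strand), a large Hsp70 relative that acts on BiP as a nucleotide exchange factor, was called for TGF-β1 in both lines and for the line in neither state. It stood at 84.0 and 73.9 CPM in shMock control, 159.8 and 161 in shMock Tgfb1, 70.4 and 78.1 in shMTHFD2 control and 133 and 148 in shMTHFD2 Tgfb1. The control groups of the lines overlapped. HYOU1 rose 2.03-fold in shMock (log2 1.02 ± 0.09 SE, edgeR adjusted p = 4.21e-07) and 1.89-fold in shMTHFD2 (0.92 ± 0.09, 1.79e-06). The line difference was -0.09 ± 0.09 without TGF-β1 (edgeR adjusted p = 0.605) and -0.19 ± 0.09 with it (0.178, or 0.0383 with GC and length offsets). Its exons overlap a gene on the opposite strand.

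MANF (ENSG00000145050, chromosome 3, 51385047 to 51389397, plus strand), a small secreted and ER-retained protein that binds BiP, stood at 32.2 and 36.3 CPM in shMock control, 63.2 and 58.2 in shMock Tgfb1, 30.1 and 27.4 in shMTHFD2 control and 41.0 and 47.1 in shMTHFD2 Tgfb1. It rose in both lines, by log2 0.83 ± 0.10 SE in shMock (edgeR adjusted p = 1.82e-05) and 0.61 ± 0.11 in shMTHFD2 (0.000487). With TGF-β1 it was lower in shMTHFD2 (-0.46 ± 0.10, edgeR adjusted p = 0.00914), a call lost without shMock Tgfb1 replicate 1 (0.0838) or shMTHFD2 Tgfb1 replicate 1 (0.0898). Without TGF-β1 the difference was -0.25 ± 0.11 (edgeR adjusted p = 0.161).

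The J proteins, which hand clients to BiP and start its ATPase, did not share 1 pattern. DNAJB11 (ENSG00000090520, chromosome 3, 186567403 to 186585800, plus strand) stood at 72.0 and 72.7 CPM in shMock control, 105 and 96.4 in shMock Tgfb1, 63.9 and 61.0 in shMTHFD2 control and 80.2 and 86.4 in shMTHFD2 Tgfb1. With TGF-β1 it rose by log2 0.47 ± 0.08 SE in shMock (edgeR adjusted p = 0.00034) and 0.42 ± 0.08 in shMTHFD2 (0.00151). Its fall in shMTHFD2 with TGF-β1 was close to the threshold (-0.27 ± 0.08, edgeR adjusted p = 0.041) and was lost in 9 of the alternatives, among them without shMock control replicate 1 (0.0594), shMock Tgfb1 replicate 1 (0.242), shMTHFD2 Tgfb1 replicate 1 (0.24) or replicate 2 (0.0764), with library totals (0.143) and with GC and length offsets (0.256). Exons of DNAJB11 overlap genes on both strands.

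DNAJC10 (ENSG00000077232, chromosome 2, 182716041 to 182794464, plus strand), a J protein that also reduces disulfides for degradation, stood at 165 and 171 CPM in shMock control, 235 and 225 in shMock Tgfb1, 143 and 157 in shMTHFD2 control and 172 and 169 in shMTHFD2 Tgfb1. The highest values were thus those of shMock Tgfb1. TGF-β1 raised it by log2 0.45 ± 0.08 SE in shMock (edgeR adjusted p = 0.000349), a call lost with GC and length offsets (0.16). In shMTHFD2 the value was 0.19 ± 0.08 (edgeR adjusted p = 0.104), and with TGF-β1 the gene was lower in shMTHFD2 by -0.43 ± 0.08 (0.00221). Without TGF-β1 the line difference was -0.17 ± 0.08 (edgeR adjusted p = 0.198), which passed with GC and length offsets (-0.32, 0.0097). Exons of DNAJC10 overlap those of RPL31P15 on the same strand.

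DNAJB9 (ENSG00000128590, chromosome 7, 108569568 to 108574850, plus strand), a J protein that returns IRE1 to its inactive form, stood at 22.9 and 21.4 CPM in shMock control, 41.6 and 36.3 in shMock Tgfb1, 23.8 and 25.5 in shMTHFD2 control and 34.4 and 29.8 in shMTHFD2 Tgfb1. Its rise was log2 0.81 ± 0.12 SE in shMock (edgeR adjusted p = 6.17e-05) and 0.38 ± 0.12 in shMTHFD2 (0.026). The latter call was lost without shMTHFD2 control replicate 1 (0.155) or replicate 2 (0.0601), without shMTHFD2 Tgfb1 replicate 1 (0.222), with library totals (0.0992) and in DESeq2 (0.0527). Between the lines DNAJB9 did not pass, at log2 0.15 ± 0.12 without TGF-β1 (edgeR adjusted p = 0.474) and -0.28 ± 0.11 with it (0.126). DNAJB9 exons overlap genes on the opposite strand.

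DNAJC3 (ENSG00000102580, chromosome 13, 95677139 to 95794989, plus strand), known as an inhibitor of PERK and a co-chaperone, stood at 47.2 and 41.6 CPM in shMock control, 59.3 and 56.3 in shMock Tgfb1, 50.6 and 55.5 in shMTHFD2 control and 52.6 and 53.4 in shMTHFD2 Tgfb1. The groups of shMTHFD2 overlapped. It rose in shMock by log2 0.38 ± 0.09 SE (edgeR adjusted p = 0.00501), a call lost without shMock control replicate 2 (0.064), and stood at -0.00 ± 0.09 in shMTHFD2 (0.996). Between the lines DNAJC3 did not pass, at log2 0.25 ± 0.09 in shMTHFD2 against shMock without TGF-β1 (edgeR adjusted p = 0.0936). With TGF-β1 the value was -0.13 ± 0.09 (edgeR adjusted p = 0.419). The remaining chaperones did not pass in any comparison with all libraries and the main settings. SDF2L1, a partner of J proteins, stood at 4.58 to 7.1 CPM, CRELD2 at 29.5 to 42.9 CPM and the exchange factor SIL1 at 38.3 to 44.0 CPM over the 8 libraries. Exons of CRELD2 and SIL1 overlap genes on the opposite strand.

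Both lectin chaperones, which bind the sugar chains of new glycoproteins, rose with TGF-β1 in both lines. CALR (ENSG00000179218, chromosome 19, 12938578 to 12944489, plus strand), the soluble calreticulin, stood at 507 and 537 CPM in shMock control, 749.7 and 643 in shMock Tgfb1, 409 and 375 in shMTHFD2 control and 598 and 592 in shMTHFD2 Tgfb1. It rose by log2 0.42 ± 0.09 SE in shMock (edgeR adjusted p = 0.00183) and 0.60 ± 0.09 in shMTHFD2 (0.000102). It was lower in shMTHFD2 without TGF-β1 (-0.41 ± 0.09, edgeR adjusted p = 0.00704), a call lost without shMock control replicate 2 (0.106) or shMTHFD2 control replicate 2 (0.109), and stood at -0.23 ± 0.09 with it (0.108), which passed in DESeq2 (0.0369), with GC and length offsets (0.0384) and without shMock Tgfb1 replicate 2 (0.0297).

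CANX (ENSG00000127022, chromosome 5, 179678628 to 179730925, plus strand), the membrane-bound calnexin, stood at 569 and 549.6 CPM in shMock control, 832 and 732 in shMock Tgfb1, 538 and 586 in shMTHFD2 control and 655 and 718 in shMTHFD2 Tgfb1. The control groups of the lines overlapped. The rise was log2 0.48 ± 0.09 SE in shMock (edgeR adjusted p = 0.000577) and 0.29 ± 0.09 in shMTHFD2 (0.0266). The latter call was lost without shMTHFD2 control replicate 1 (0.218), shMTHFD2 Tgfb1 replicate 1 (0.0503) or replicate 2 (0.227), or shMock control replicate 2 (0.0515), and with library totals (0.13). Between the lines CANX did not pass, at log2 0.01 ± 0.09 without TGF-β1 (edgeR adjusted p = 0.978) and -0.19 ± 0.09 with it (0.19). Exons of CALR and CANX each overlap a gene on the opposite strand.

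Of 8 disulfide isomerases and oxidases, 3 rose with TGF-β1 in shMock and 5 in shMTHFD2, against 17.3% and 12.8% of all tested genes. Between the lines, 4 fell in shMTHFD2 without TGF-β1 and 2 with it, against 8.19% and 8.23% of all tested genes. PDIA3 (ENSG00000167004, chromosome 15, 43746392 to 43773279, plus strand), the isomerase that works with the lectins, stood at 418 and 440.4 CPM in shMock control, 628 and 519.8 in shMock Tgfb1, 339 and 333 in shMTHFD2 control and 457 and 452 in shMTHFD2 Tgfb1. TGF-β1 raised it by log2 0.42 ± 0.09 SE in shMock (edgeR adjusted p = 0.00196) and 0.44 ± 0.09 in shMTHFD2 (0.00207). It was lower in shMTHFD2 by -0.35 ± 0.09 without TGF-β1 (edgeR adjusted p = 0.0208) and -0.34 ± 0.09 with it (0.0238). The former call was lost when any of the 4 control libraries was left out (edgeR adjusted p = 0.0512 to 0.206), and the latter without shMock Tgfb1 replicate 1 (0.229, log2 -0.19), shMTHFD2 Tgfb1 replicate 1 (0.107) or replicate 2 (0.114), with library totals (0.0674) and with GC and length offsets (0.0739). A processed copy, PDIA3P1, held 139 to 176 counts against 6452 to 11795 for PDIA3, whose exons also overlap genes on the opposite strand.

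TXNDC5 (ENSG00000239264, chromosome 6, 7881517 to 7910814, minus strand), an isomerase known to help collagen folding in fibroblasts, stood at 219 and 228 CPM in shMock control, 314 and 298 in shMock Tgfb1, 179 and 163 in shMTHFD2 control and 246 and 255 in shMTHFD2 Tgfb1. No groups overlapped. It rose by log2 0.46 ± 0.08 SE in shMock (edgeR adjusted p = 0.000356) and 0.55 ± 0.08 in shMTHFD2 (8.19e-05). It was lower in shMTHFD2 by -0.39 ± 0.08 without TGF-β1 (edgeR adjusted p = 0.00544) and -0.29 ± 0.08 with it (0.0264). These calls were lost without shMock control replicate 2 (0.0936) or shMTHFD2 control replicate 2 (0.0954), and without shMock Tgfb1 replicate 1 (0.137), shMTHFD2 Tgfb1 replicate 1 (0.157) or replicate 2 (0.0896) and with library totals (0.101). A read-through gene that shares its exons, BLOC1S5-TXNDC5, held 0 to 268 counts.

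P4HB (ENSG00000185624, chromosome 17, 81843159 to 81860694, minus strand) encodes PDI, which is also the beta subunit of the collagen prolyl 4-hydroxylase. It stood at 804 and 849.8 CPM in shMock control, 904 and 859 in shMock Tgfb1, 701 and 599.7 in shMTHFD2 control and 876 and 829 in shMTHFD2 Tgfb1. The shMTHFD2 control group was lower than the others. P4HB rose in shMTHFD2 (log2 0.39 ± 0.09 SE, edgeR adjusted p = 0.00423) and stood at 0.09 ± 0.09 in shMock (0.45), a value that became a called rise with GC and length offsets (0.24, 0.0300). It was lower in shMTHFD2 without TGF-β1 (-0.35 ± 0.09, edgeR adjusted p = 0.0211) and stood at -0.05 ± 0.09 with it (0.779). The rise was lost without shMTHFD2 control replicate 2 (0.0866) or shMTHFD2 Tgfb1 replicate 1 (0.0573), and the fall without shMock control replicate 2 (0.206) or shMTHFD2 control replicate 2 (0.272, log2 -0.23) and with library totals (0.055).

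PDIA4 (ENSG00000155660, chromosome 7, 149003062 to 149028641, minus strand), a BiP-associated isomerase, stood at 118 in both shMock control libraries, 162 and 129 CPM in shMock Tgfb1, 92.9 and 86.1 in shMTHFD2 control and 126 and 133 in shMTHFD2 Tgfb1. It rose by log2 0.53 ± 0.10 SE in shMTHFD2 (edgeR adjusted p = 0.000843) and 0.31 ± 0.10 in shMock (0.0236). The call in shMock was lost without shMock Tgfb1 replicate 1 (0.297, log2 0.14), shMock control replicate 1 (0.0851) or replicate 2 (0.0772), and with library totals (0.169). It was lower in shMTHFD2 without TGF-β1 (-0.40 ± 0.10, edgeR adjusted p = 0.017), lost without shMock control replicate 1 (0.0695) or replicate 2 (0.107) or shMTHFD2 control replicate 2 (0.161).

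PDIA5 (ENSG00000065485, chromosome 3, 123067062 to 123225227, plus strand), a further isomerase, stood at 24.6 and 19.9 CPM in shMock control, 22.2 and 28.98 in shMock Tgfb1, 16.3 and 16.9 in shMTHFD2 control and 24.6 and 25.0 in shMTHFD2 Tgfb1. It rose in shMTHFD2 (log2 0.58 ± 0.15 SE, edgeR adjusted p = 0.00798), a call lost without shMTHFD2 control replicate 1 (0.0531), while its groups overlapped in shMock (0.20 ± 0.14, 0.306). PDIA6 stood at 243 to 291 CPM over the 8 libraries. The oxidase ERO1A, which recharges PDI, stood at 96.1 to 121 CPM and its relative ERO1B at 2.66 to 5.99 CPM. PDIA6, ERO1A and ERO1B passed in no comparison at the main settings. Exons of PDIA5 overlap genes on the same strand, and those of P4HB, PDIA6 and ERO1A genes on the opposite strand.

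Of 7 tested genes of ER-associated degradation, which pulls misfolded proteins back to the proteasome, 4 rose with TGF-β1 in shMock and 3 in shMTHFD2. These rises stand beside 17.3% and 12.8% of all tested genes. Between the lines, 1 fell in shMTHFD2 without TGF-β1 and 3 with it, against 8.19% and 8.23% of all tested genes. HERPUD1 (ENSG00000051108, chromosome 16, 56932048 to 56944863, plus strand), a membrane protein that joins the ubiquitin ligase complex, stood at 99.3 and 96.5 CPM in shMock control, 143 in both shMock Tgfb1 libraries, 73.9 and 72.2 in shMTHFD2 control and 97.3 and 111 in shMTHFD2 Tgfb1. Its shMTHFD2 Tgfb1 libraries thus lay beside those of shMock control. HERPUD1 rose by log2 0.55 ± 0.08 SE in shMock (edgeR adjusted p = 8.94e-05) and 0.51 ± 0.08 in shMTHFD2 (0.000264). It was 1.34-fold lower in shMTHFD2 without TGF-β1 (-0.42 ± 0.08, edgeR adjusted p = 0.00382) and 1.38-fold lower with it (-0.46 ± 0.08, 0.00183).

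SYVN1 (ENSG00000162298, chromosome 11, 65121780 to 65134533, minus strand) encodes HRD1, the ubiquitin ligase of the complex, and SEL1L (ENSG00000071537, chromosome 14, 81471549 to 81533861, minus strand) its adaptor. SYVN1 stood at 60.0 and 52.1 CPM in shMock control, 78.6 and 81.8 in shMock Tgfb1, 53.3 and 53.4 in shMTHFD2 control and 78.9 and 92.5 in shMTHFD2 Tgfb1. The lines overlapped in both states, and the rise was log2 0.52 ± 0.10 SE in shMock (edgeR adjusted p = 0.000674) and 0.68 ± 0.10 in shMTHFD2 (7.05e-05). Its line differences were -0.07 ± 0.10 without TGF-β1 (edgeR adjusted p = 0.716) and 0.10 ± 0.10 with it (0.571). SYVN1 exons overlap genes on both strands.

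The adaptor SEL1L stood at 141 and 126 CPM in shMock control, 182 and 171 in shMock Tgfb1, 105 and 117 in shMTHFD2 control and 126 and 139.9 in shMTHFD2 Tgfb1. It rose in shMock by log2 0.40 ± 0.09 SE (edgeR adjusted p = 0.00239) and stood at 0.25 ± 0.09 in shMTHFD2 (0.0528), which passed in DESeq2 (0.0456) and in 5 other alternatives, among them without shMock Tgfb1 replicate 1 (0.0432) or replicate 2 (0.0482). With TGF-β1 it was lower in shMTHFD2 (-0.41 ± 0.09, edgeR adjusted p = 0.00728), a call lost without shMock Tgfb1 replicate 1 (0.0603) or shMTHFD2 Tgfb1 replicate 1 (0.0852). Without TGF-β1 the difference was -0.26 ± 0.09 (edgeR adjusted p = 0.0755), which passed with GC and length offsets (-0.33, 0.00672).

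EDEM1 (ENSG00000134109, chromosome 3, 5187646 to 5219957, plus strand), a lectin-like factor that marks glycoproteins for degradation, stood at 68.1 and 69.5 CPM in shMock control, 90.1 and 94.1 in shMock Tgfb1, 57.7 and 64.3 in shMTHFD2 control and 77.8 and 84.9 in shMTHFD2 Tgfb1. It rose by log2 0.42 ± 0.09 SE in each line (edgeR adjusted p = 0.0013 in shMock and 0.00206 in shMTHFD2). The line differences of -0.17 ± 0.09 and -0.18 ± 0.09 did not pass (edgeR adjusted p = 0.231 and 0.192). EDEM1 exons overlap a gene on the opposite strand.

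DERL1 (ENSG00000136986, chromosome 8, 123013164 to 123042423, minus strand), a channel component, stood at 90.4 and 88.0 CPM in shMock control, 107 and 91.4 in shMock Tgfb1, 76.7 and 76.8 in shMTHFD2 control and 82.0 and 79.3 in shMTHFD2 Tgfb1. It did not pass for TGF-β1 in either line, and was lower in shMTHFD2 with TGF-β1 (log2 -0.30 ± 0.09 SE, edgeR adjusted p = 0.0354). That call was lost without shMock Tgfb1 replicate 1 (0.303, log2 -0.17), shMTHFD2 Tgfb1 replicate 1 (0.104) or replicate 2 (0.161), and with library totals (0.107), GC and length offsets (0.0971) or only the 2 groups in the fit (0.0549). EDEM2 (31.8 to 39.7 CPM over the 8 libraries), DERL2 (42.2 to 54.4 CPM) and SEC61B, a subunit of the translocon through which new proteins enter the ER (48.2 to 71.0 CPM), passed in no comparison at the main settings. With GC and length offsets SEC61B rose with TGF-β1 in shMock (0.28, edgeR adjusted p = 0.0308) and in shMTHFD2 (0.33, 0.0165), and in shMTHFD2 it also passed with no low-count filter (0.0289). Exons of DERL1 and DERL2 overlap genes on the opposite strand.

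Whether TGF-β1 acted differently on these genes in the lines was tested by the interaction, the response in shMTHFD2 minus that in shMock. None of the 33 genes passed (edgeR's quasi-likelihood test, 0.0889% of all tested genes called), 6 had an unadjusted p under 0.05, and DESeq2, which gave an adjusted p for 28 of the genes, called 0, with 4 at an unadjusted p under 0.05. The median difference was -0.01 on the log2 scale (all genes 0.02), and the values ran from -0.56 for ERN1 to 0.45 for SDF2L1. The 6 were DNAJC3 (-0.38, edgeR adjusted p = 0.268), DNAJB9 (-0.43, 0.304), ERN1 (-0.56, 0.321) and DNAJC10 (-0.26, 0.35), with lower responses in shMTHFD2, and SIL1 (0.32, 0.321) and P4HB (0.30, 0.352), with higher ones. A p that misses the threshold does not show that the lines responded alike, and for HSPA5 the difference was 0.07 (edgeR adjusted p = 0.838).

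The TGF-β1 comparisons of the 2 lines share no library. Of the genes that rose, 17 did so in both lines, 81.0% of the 21 in shMock and 89.5% of the 19 in shMTHFD2. Over all tested genes, 1392 rose in both lines, 59.7% of those in shMock and 80.7% of those in shMTHFD2. DNAJC3, DNAJC10, SEL1L and ATF6 passed in shMock alone and PDIA5 and P4HB in shMTHFD2 alone, although none of these passed the interaction. The line comparisons without and with TGF-β1 share no library either. HSPA5, HSP90B1, HERPUD1, XBP1, PDIA3, EIF2AK3 and TXNDC5 were lower in shMTHFD2 in both states, 70% of the 10 called without TGF-β1 and 58.3% of the 12 called with it. Over all tested genes, 619 fell in both states, 56% and 55.8% of those called, so the share with TGF-β1 lies near that of all genes. The comparisons of TGF-β1 and of the line share libraries, so their calls are set side by side without a measure of overlap.

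The promoter elements named above can be set beside these calls. Of the 13 genes with an element, 9 rose with TGF-β1 in shMock and 8 in shMTHFD2, and 6 fell in shMTHFD2 in each state. Of the 18 tested genes with a window and no element, 11 and 10 rose, and 3 fell in shMTHFD2 without TGF-β1 and 4 with it. Over all tested genes, 17.3% and 12.8% rose with TGF-β1, and 8.19% and 8.23% fell in shMTHFD2. Of the 8 with an ERSE, 5 rose in each line (HSPA5, HSP90B1, XBP1, CALR and CANX). PDIA6, CRELD2 and ERO1B passed in no comparison at the main settings. Both stretches of HYOU1 and the element of HERPUD1 belong to genes that rose in both lines, and the ERSE-II gene SDF2L1 passed in none. Genes that rose in both lines numbered 8 of the 13 with an element and 8 of the 18 without. The latter were DNAJB9, DNAJB11, PDIA4, MANF, EDEM1, SYVN1, ERN1 and EIF2AK3. Over all 13493 genes tested, 1392 rose in both lines.

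A further 6 lists of ER genes were measured beside the 34. The list of the PERK arm and its ATF4 targets had 10 of 12 rise and 1 fall with TGF-β1 in shMock and 10 rise in shMTHFD2, with medians of 0.66 and 0.75 on the log2 scale. In shMTHFD2 against shMock 8 of the 12 fell without TGF-β1 and 6 with it, and 0 rose (medians -0.54 and -0.42). Over all tested genes, 17.3% and 12.8% rose and 18.1% and 11.0% fell with TGF-β1 in shMock and shMTHFD2. Between the lines, 8.19% and 8.23% fell. ASNS, the asparagine synthetase, whose exons overlap another gene on the same strand, had the largest rise in both lines (log2 2.36 ± 0.11 SE in shMock, edgeR adjusted p = 2.4e-10, and 2.40 ± 0.11 in shMTHFD2, 4.2e-10). It stood at 33.4 and 25.6 CPM in shMock control, 149 and 155 in shMock Tgfb1, 18.3 and 17.2 in shMTHFD2 control and 90.5 and 96.9 in shMTHFD2 Tgfb1. CEBPB, a transcription factor that overlaps the antisense gene CEBPB-AS1, fell in shMock with TGF-β1 (-0.54 ± 0.14, edgeR adjusted p = 0.0080, lost with GC and length offsets at 0.0764). The stress-induced transcription factor ATF3 had the largest fall in shMTHFD2 without TGF-β1 (-1.04 ± 0.12, edgeR adjusted p = 4.5e-05), and the receptor gene VLDLR, which overlaps an antisense gene, with it (-0.91 ± 0.17, 0.0025).

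Genes of retrieval to the ER followed, with 10 of 13 rising in shMock and 11 in shMTHFD2, 0 falling, and medians of 0.51 and 0.49. In shMTHFD2 4 fell in each state and 0 rose (medians -0.15 and -0.17). The rises are 76.9% and 84.6% of the list, against 17.3% and 12.8% of all tested genes, and the falls 30.8%, against 8.19% and 8.23%. KDELR3, a receptor that returns chaperones such as BiP from the Golgi, led in all 4 comparisons. It stood at 73.4 and 81.1 CPM in shMock control, 156 and 137 in shMock Tgfb1, 43.7 and 51.8 in shMTHFD2 control and 85.3 and 82.9 in shMTHFD2 Tgfb1. Its log2 rise was 0.93 ± 0.10 SE in shMock and 0.82 ± 0.10 in shMTHFD2, and its log2 difference between the lines was -0.69 ± 0.10 without and -0.80 ± 0.10 with TGF-β1. KDELR3 exons overlap DDX17 on the opposite strand.

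Of 30 further genes of the translocon, signal peptidase and glycosylation, 18 rose and 2 fell with TGF-β1 in shMock and 14 rose and 1 fell in shMTHFD2 (medians 0.28 and 0.24). The rises are 60% and 46.7% of the list, against 17.3% and 12.8% of all tested genes. The falls are 6.67% and 3.33%, against 18.1% and 11.0%. In shMTHFD2 2 fell without TGF-β1, 6.67% against 8.19% of all tested genes, and 6 fell and 1 rose with it (20% against 8.23% falling). OSTC, a subunit of the oligosaccharyltransferase, rose most in shMock (log2 0.94 ± 0.09 SE, edgeR adjusted p = 6.8e-07) and TRAM2, which aids collagen translocation, in shMTHFD2 (0.73 ± 0.09, 1.7e-05). SSR3, a subunit of the translocon-associated complex, had the largest fall in shMTHFD2 with TGF-β1 (-0.40 ± 0.08, edgeR adjusted p = 0.0040). SEC61A2 fell in shMock (-0.42 ± 0.14), a call lost without shMock control replicate 1 (0.0881) or replicate 2 (0.117) or shMock Tgfb1 replicate 1 (0.154) and in DESeq2 (0.0938). Within the shMTHFD2 line, SPCS3, of the signal peptidase, fell with TGF-β1 against control (-0.30 ± 0.09). That call was lost without shMTHFD2 control replicate 2 (log2 -0.23) or shMTHFD2 Tgfb1 replicate 2 (log2 -0.23). TRAM1 was lower in shMTHFD2 without TGF-β1 (-0.38 ± 0.09), lost when any of the 4 control libraries was left out (edgeR adjusted p = 0.0556 to 0.0899). SRPRA, of the signal recognition particle receptor, was higher in shMTHFD2 with TGF-β1 (0.25 ± 0.07), lost when any of the 8 libraries was left out (edgeR adjusted p = 0.0574 to 0.207). Exons of SEC61A2, SPCS3, TRAM2 and SRPRA overlap genes on the opposite strand.

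Of 38 other tested folding factors, 14 rose and 3 fell in shMock, 13 rose and 1 fell in shMTHFD2, 6 fell in shMTHFD2 without TGF-β1, and 8 fell and 1 rose with it. The falls between the lines are 15.8% and 21.1% of the list, against 8.19% and 8.23% of all tested genes. The rises with TGF-β1 are 36.8% and 34.2%, against 17.3% and 12.8%. The falls with TGF-β1 are 7.89% and 2.63%, against 18.1% and 11.0%. FKBP14, a prolyl isomerase of collagen folding that overlaps an antisense gene, rose by log2 1.08 ± 0.10 SE in shMock (edgeR adjusted p = 7.5e-07) and RCN3, a calcium-binding protein, by 0.97 ± 0.10 in shMTHFD2 (2.1e-06), while the oxidase QSOX1 fell in shMock (-0.45 ± 0.08, 0.00071). GANAB, the catalytic subunit of glucosidase II that trims the sugar read by the lectins, was lower in shMTHFD2 without TGF-β1 (-0.79 ± 0.08, edgeR adjusted p = 1.6e-05) and CNPY2 with it (-0.82 ± 0.10, 0.00011, exons shared with other genes). The rise of MOGS in shMTHFD2 with TGF-β1 (0.31 ± 0.09) was lost when any of the 4 Tgfb1 libraries was left out (edgeR adjusted p = 0.0582 to 0.209), and the fall of DNAJC25 with TGF-β1 in shMTHFD2 (-0.68 ± 0.17, read-through gene on the same strand) without shMTHFD2 control replicate 2 (0.0729) or Tgfb1 replicate 1 (0.115).

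Of 14 other regulators of the response, 4 rose and 2 fell in shMock and 4 rose and 1 fell in shMTHFD2. The shares rising (28.6% in each line) stand beside 17.3% and 12.8% of all tested genes, and those falling (14.3% and 7.14%) beside 18.1% and 11.0%. Between the lines 2 fell without TGF-β1, and 2 fell and 1 rose with it. The falls are 14.3% of the list in each state, against 8.19% and 8.23% of all tested genes. The 1 rise is 7.14%, against 4.83%. CREB3L2, a membrane-bound transcription factor related to ATF6, rose from 85.5 and 71.0 CPM to 409 and 356 in shMock (log2 2.29 ± 0.10 SE, edgeR adjusted p = 1.6e-10) and from 67.1 and 63.1 to 281 and 298 in shMTHFD2 (2.15 ± 0.10, 4.1e-10). Its relative CREB3L1 had the largest fall between the lines without TGF-β1 (-0.55 ± 0.10, edgeR adjusted p = 0.0022) and with it (-0.49 ± 0.10, 0.0045), the latter lost without shMock Tgfb1 replicate 1 (0.0608) or shMTHFD2 Tgfb1 replicate 1 (0.0585). WFS1 fell in shMock (-0.54 ± 0.09, edgeR adjusted p = 0.00033). ATF6B, a relative of ATF6 whose exons overlap TNXB, fell with TGF-β1 in shMTHFD2 (-0.30 ± 0.09), lost without shMTHFD2 control replicate 1 (0.145) or Tgfb1 replicate 2 (0.172). With TGF-β1 it was higher in shMTHFD2 (0.30 ± 0.09), lost without 5 of the 8 libraries, each left out in turn (edgeR adjusted p = 0.0518 to 0.272).

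Of 25 other degradation factors, 6 rose and 2 fell in shMock and 8 rose in shMTHFD2 (medians 0.15 and 0.10). These rises are 24% and 32% of the list, against 17.3% and 12.8% of all tested genes. The falls are 8% and 0%, against 18.1% and 11.0%. Between the lines, EDEM3 was higher in shMTHFD2 without TGF-β1 (0.50 ± 0.10 SE, edgeR adjusted p = 0.0042, lost without shMTHFD2 control replicate 2 at 0.0672). This rise is 4% of the list and 0 fell, against 3.25% rising and 8.19% falling among all tested genes. With TGF-β1 edgeR called 0 of 25, with 5 at an unadjusted p under 0.05. Among all tested genes 4.83% rose and 8.23% fell there, which in a list of 25 amounts to few genes. The ATPase VCP, the most abundant of them, stood at 399 to 456 CPM in the Tgfb1 libraries of both lines. ERLEC1, a lectin of degradation, rose most in shMock (0.70 ± 0.09, edgeR adjusted p = 2.1e-05) and the conjugating enzyme UBE2J1 in shMTHFD2 (0.53 ± 0.08, 0.0001), and UBE2G2 fell in shMock (-0.32 ± 0.08, 0.0055, lost without shMock control replicate 2 at 0.053). The interaction called 0 genes in each of the 6 lists in edgeR, with 1 to 8 genes a list at an unadjusted p under 0.05.

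**Figure D4:**
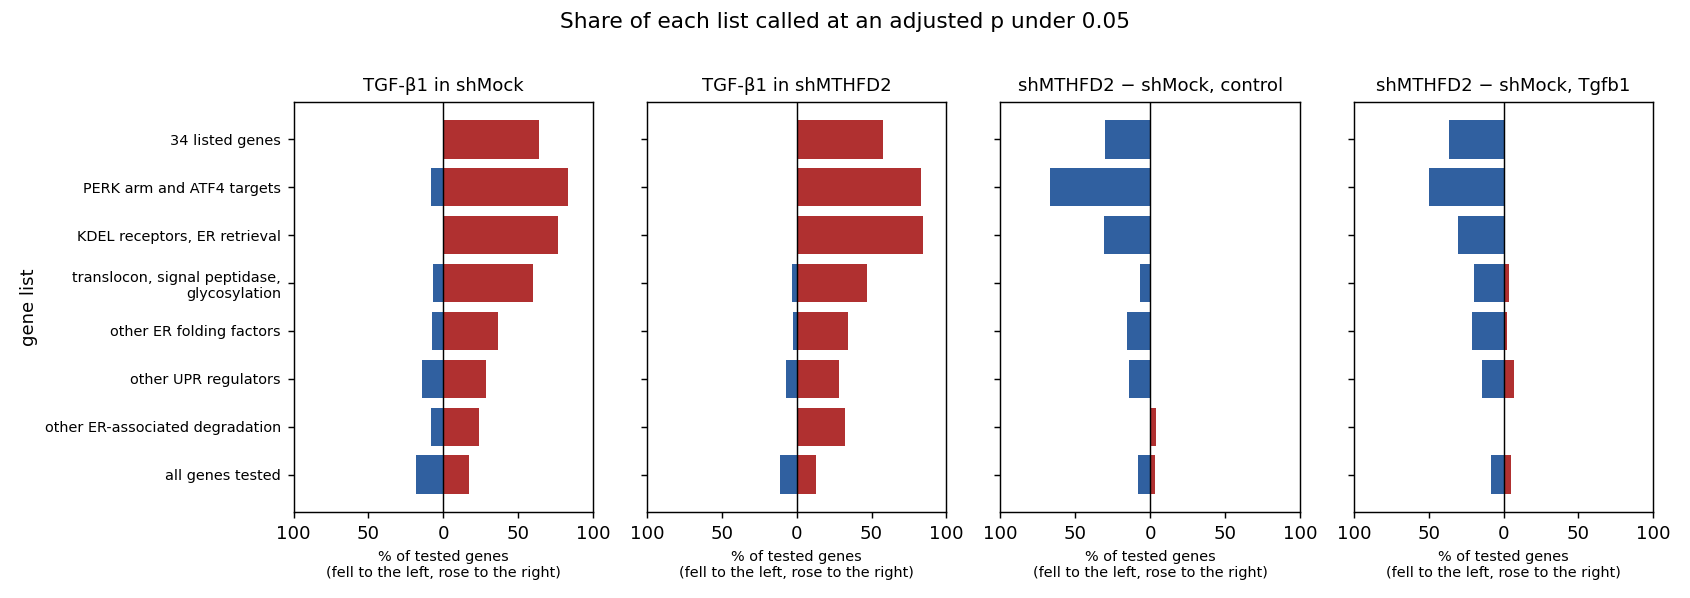
Share of tested genes (horizontal axis, %) that rose (right, red) or fell (left, blue) at an adjusted p under 0.05 in the 34-gene list, 6 other lists and all genes tested (vertical axis), in 4 comparisons. The 34 genes rose in 63.6% and 57.6% with TGF-β1 and fell in 30.3% and 36.4% between the lines.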

How the data were processed

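The table deposited by the authors holds whole-number counts per Ensembl gene ID for the 8 libraries, although its name speaks of FPKM. They could be rounded estimates, which no source settles, and the tests treat them as read counts. STAR 2.7.1a, DESeq2 1.32.0 and GRCh38 stand in the submitters' processing notes, with no role stated. The counter, the annotation, strand use and filters were not given in the sources used here, so genes whose exons overlap another are named as uncertain. Symbols were found for 60437 of 60666 IDs and positions, in GENCODE release 29 on GRCh38, for 58420.

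Counts were fitted with edgeR 4.0.16 in R 4.3.3, with TMM factors (0.914 to 1.07), a minimum mean of 1 CPM per gene, and 1 mean per group over the 8 libraries, which left 4 residual degrees of freedom. The common biological coefficient of variation was 8.79%. The quasi-likelihood test was Benjamini-Hochberg adjusted over all 13493 genes tested, with a threshold of 0.05, and tested on simulated data. Each SE is approximate, being the log2 fold change divided by the root of its F value. CPM are TMM-scaled, and per-kilobase levels divide them by the principal transcript. DESeq2 1.42.0 was an alternative. Between replicates of a group, chi-square per degree of freedom was 6.47 to 11.2, so replicates differed by more than counting error.

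The 34 genes, the 6 other lists and the tests were chosen with earlier results of these data known. Genes were named by rule: MTHFD2, each of the 34, and from each other list the called gene with the largest rise and the largest fall in each comparison, or the most abundant gene where none was called.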

Additional observations from a re-analysis of the deposited data

How the results depend on the processing

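Alternatives covered the scaling, the low-count filter, the tool, the groups in the fit, GC and length offsets, a replicate block and leaving out each library. No direction of a called gene reversed in any of them. Leaving out 1 library at a time gave 4 to 14 called of the 34 genes for the line with TGF-β1 (12 with all libraries), 3 to 12 without it (10), 18 to 22 for TGF-β1 in shMock (21), 15 to 20 in shMTHFD2 (19) and 0 for the interaction (0). Over all genes, the 1762 calls for the line with TGF-β1 became 855 without shMock Tgfb1 replicate 1, 841 without shMTHFD2 Tgfb1 replicate 1 and 1001 without its replicate 2. The 1543 calls without TGF-β1 became 585 without shMock control replicate 2, 973 without its replicate 1 and 637 without shMTHFD2 control replicate 2. The 12 interaction calls became 105 in DESeq2 and 321 with no low-count filter, and 3 to 192 when libraries were left out. The labels do not say whether same-numbered libraries are paired. Their deviations from the group means correlated at -0.0203 to 0.0687 over 6 pairs of groups, which cannot show whether they share a culture or day. With the replicate block, 11, 10, 21, 19 and 0 of the 34 genes were called in the same order of comparisons. Beside the gains named in the report, some alternatives called genes not called otherwise: PDIA6 for the line without TGF-β1 in DESeq2 (adjusted p = 0.0238) and without shMock Tgfb1 replicate 1 (edgeR adjusted p = 0.0459) or replicate 2 (0.0413), PDIA5 there without the same libraries (0.0469 and 0.0457), CRELD2 there without shMTHFD2 control replicate 1 (0.0431), PDIA4 for the line with TGF-β1 without shMock Tgfb1 replicate 2 (0.0342), DERL1 for TGF-β1 in shMock without that library (0.0432) and SEC61B for TGF-β1 in shMTHFD2 without shMTHFD2 Tgfb1 replicate 2 (0.0154). Depth limits DERL3, called in shMock with TGF-β1 only under edgeR's own filter (log2 2.31, edgeR adjusted p = 0.0446).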
